A study of Botryllus schlosseri with 78 samples.

Results

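FF12 is 1 of the 45 transcripts named FF, read here as the fester family, in a table of 137 transcripts from the colonial tunicate Botryllus schlosseri. It was singled out by its level: it stood high in ampullae and in cells sorted by aldehyde dehydrogenase (ALDH), and low in cells carrying the surface protein integrin alpha-6 (IA6). Those levels chose the gene, so its order over sample classes is given as a description with no test. Tests were kept for differences inside a class, among ALDH-sorted cells and for male colonies against whole bodies. A test of ampullae minus whole body between the colonies SMH and SMGO was added after the values were seen.

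Colonies of Botryllus meet at their ampullae, blind vessel ends at the colony margin, and there either fuse and share blood or reject each other. The outcome follows the highly variable Fuhc locus. Fester and uncle fester, for which the fester family is named, are receptors of this allorecognition system, and FcoR, the other receptor list of the table, was assembled from it by sequence search, per the series record. ALDH activity and IA6 have both been used to enrich candidate stem cells from the blood and tissues of this animal, which can move between fused colonies. What FF12 itself binds or signals to is not known from the sources used here.

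RNA sequencing gave 77 libraries with values. Whole blood was taken from 3 individuals. IA6-positive cells came from 4 individuals in 8 libraries, and IA6-negative cells from 2 of these individuals in 4 libraries. ALDH-positive and ALDH-negative cells came as 1 library each from 4 individuals, of which the labels call 2 winners and 2 losers. The 16 ampullae libraries came from SMGO (4), SMH (3) and 3 lines of SB825, named FX, FEA and FDA (3 each). The 12 whole-body libraries split evenly between SMH, SMGO, SKI and SB825. The 21 male libraries covered 7 stages of the budding cycle in MDR, MADM and M001, with 1 library per stage and genotype. Vascular cells sorted with what the labels call BSA gave 5 libraries. The labels give no age, no treatment and no sex outside the male colonies. The table lists receptor, signalling and Fuhc transcripts, so the labelled cell types were not checked against marker genes here.

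Each value is read as a TMM-scaled TPM, an abundance per transcript length that was then scaled between libraries. Library sums over the 137 transcripts lay between 308919 and 1466577, so the values do not add to a fixed total. In male MDR at stage A1, for example, an FF12 value of 10102 was 1.01% of the 137 transcripts. Whether abundances were computed over these transcripts alone was not tested. A value may therefore also depend on the levels of the other transcripts listed. Depth is unknown, since such values keep no record of the number of reads. A higher value cannot be told apart from a larger share of cells that express the transcript. Whether reads of some FF12 alleles, or of similar receptors, were counted to another row was not tested. No sequence or genome position is shown for FF12, because the reference table names none of the 137 transcripts.

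3 libraries bear on the zeros of FF12. It had a value of at least 1 in 74 of 77 libraries and was listed at 0 in the other 3. Of these, the BSA libraries SB07-09 and SB10-11 held 7 and 18 of the 137 transcripts at a value of at least 1, against 65 to 80 in the other BSA libraries. In them FF13 and FF15, which were found in all 75 other libraries, were at 0 as well. The last zero was replicate 2 of the IA6-positive individual 79C. That library held 71 transcripts, with FF13 at 8069 and FF15 at 8459, while FF12 stood at 1403 in replicate 1 of the same individual.

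FF12 was among the most widely found fester-family transcripts. By the mean of log2 values over the 77 libraries it came second of the 45, at 12.30, between FF13 at 12.52 and FF17 at 11.88. That mean favours transcripts that are seldom at 0. Inside single libraries FF12 was the seventh to the thirteenth most abundant FF transcript in whole bodies and the eighth to the thirteenth in IA6-positive cells with a value, and its share of the FF total had a median of 5.64% over the libraries. It held first place among the FF transcripts of a library once, in male M001 at stage A2, and one of the first 3 places in 10 libraries. All 10 were ALDH or male M001 libraries.

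The highest class medians were in ALDH-sorted cells, positive and negative alike. ALDH-positive libraries stood at 28433 in individual 1, 22235 in individual 2B, 11019 in individual 7 and 10334 in individual 6. ALDH-negative libraries stood at 13820, 17041, 8954 and 14728 in the same order. Both fractions therefore held FF12 at 8954 or more in every individual, and it made up 6.59% to 15.8% of the FF total, the sum over all FF transcripts of a library.

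Ampullae came next by median. Their 16 libraries ranged from 5884 to 18595, with a median of 11708, so that the highest stood above every ALDH-negative library, and FF12 was the fifth to the tenth most abundant FF transcript there. Male whole colonies reached nearly the same level, from 7566 to 14642 with a median of 10102 over 21 libraries. Of the ampullae libraries, 8 of 16 fell inside the male range. A high level was thus found in whole male colonies as well as in the classes for which FF12 was chosen.

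Whole bodies and BSA cells lay in the middle. Whole bodies ranged from 2807 to 10647, with a median of 5301 over 12 libraries. The BSA libraries with FF12 stood at 8211, 5708 and 7571. Blood and both IA6 fractions were at the bottom. The blood libraries stood at 5005 in FL3, 2708 in FLLC2 and 1578 in LFC4. IA6-negative libraries ranged from 1578 to 4197, and the 8 IA6-positive libraries from 0 to 2648 with a median of 1390. Blood and IA6 libraries reached at most 5005, and the lowest library of ampullae, ALDH cells and male colonies was 5884, so these groups of libraries did not overlap. The grouping includes the classes whose levels chose FF12, so the gap is a description. The share of all transcripts that parted in this way was not counted.

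**Figure D1:**
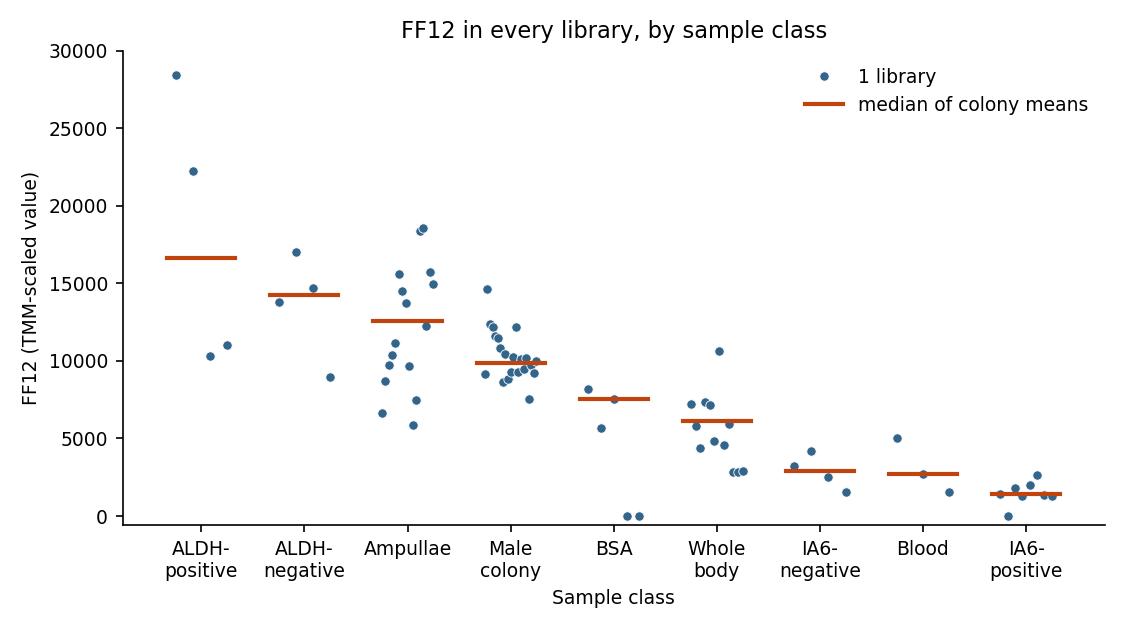
FF12 value (y axis, TMM-scaled) in each of the 77 libraries, grouped by sample class (x axis); points are libraries and lines the median of the means per colony or individual, taken without the BSA libraries at 0. The ALDH, ampullae and male libraries lie at 5884 or above, and the blood and IA6 libraries at 5005 or below. These classes include those whose levels chose FF12.

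Ranked by the median over colonies or individuals, with each library of a colony counted alike, the order began with ALDH-positive cells at 16627, ALDH-negative cells at 14274, ampullae at 12589 and male colonies at 9852. It went on with BSA cells at 7571, whole bodies at 6127, IA6-negative cells at 2878, blood at 2708 and IA6-positive cells at 1443. The largest step between neighbours was 2.13-fold, from whole bodies to IA6-negative cells. Colony means of neighbouring classes overlapped at every step but that from male colonies, at 9478 or more, to BSA cells, at 8211 or less. There, single libraries overlapped, since MDR at stage B2 stood at 7566.

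The ratio of FF12 to other FF transcripts in the same library does not depend on the scaling of that library. FF13 and FF15 served as the reference, being detected in most libraries. On the log2 scale, FF12 exceeded the geometric mean of both in all 4 ALDH-positive, all 4 ALDH-negative and all 21 male libraries, and in 14 of 16 ampullae libraries. The median log2 ratio was 2.52 in ALDH-negative cells, 1.5 in ALDH-positive cells, 0.94 in male colonies and 0.41 in ampullae. It was 0.12 in whole bodies, -0.40 in blood, -0.42 in BSA cells, -1.15 in IA6-negative cells and -1.77 in IA6-positive cells.

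The reference transcripts took other courses. FF15 had its highest class median in blood, at 9456, where FF12 stood at 2708, and its lowest in ALDH-negative cells, at 1639. The order of classes by the ratio thus reflects the course of FF15 as well as that of FF12. FF13 had its lowest class median in blood, at 1625. FF17, the next most abundant, was at 0 to 38.7 in blood but had a median of 25765 in BSA cells. FF12 differed from it there, present in every blood library.

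**Figure D2:**
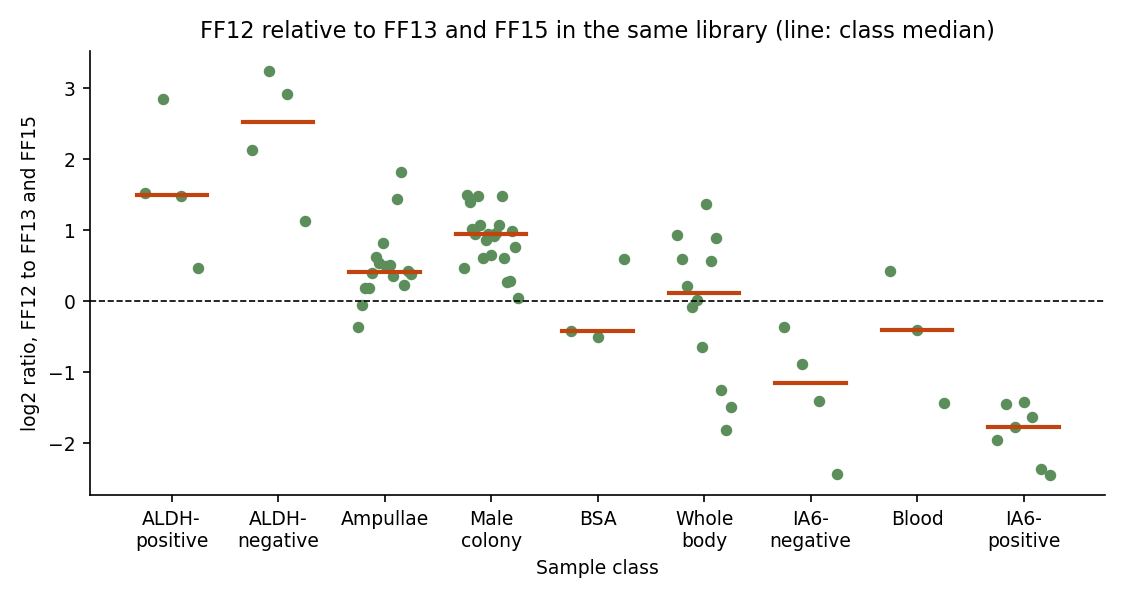
Log2 ratio of FF12 to the geometric mean of FF13 and FF15 (y axis) in each library where FF12 was above 0, by sample class (x axis); points are libraries, lines the class medians and the dashed line a ratio of 1 to 1. All ALDH and male libraries lie above the dashed line, and all IA6 libraries below it.

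Whole bodies asked whether FF12 differs between genotypes in the same kind of sample. It was low in SMH, at 2828, 2807 and 2909, a mean of 2848 ± 54.3 (SD, n = 3). SB825 stood at 7229, 5786 and 4379 (5798 ± 1425), SKI at 7371, 7182 and 4816 (6456 ± 1424), and SMGO at 10647, 4553 and 5912 (7038 ± 3199). Every library of the other genotypes lay above the highest of SMH, while SB825, SKI and SMGO overlapped. The title of SMH replicate 3 gives that number, while its description names it by a code. This library held 21 FF transcripts at a value of at least 1, against 13 and 15 in replicates 1 and 2. Its FF12 value was yet close to theirs.

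In limma, with Benjamini-Hochberg adjustment over all transcripts tested, FF12 passed between whole-body genotypes (adjusted p = 0.0162). So did 78.2% of the 110 transcripts tested and all 25 FF transcripts tested, and FF12 had the largest p of these 25. Its genotype means spanned 1.21 on the log2 scale, against a median span of 10.92 over the FF transcripts tested and 4.39 over all tested. The 3 FF transcripts with the smallest p, FF11, FF33 and FF24, spanned 15.45, 15.16 and 15.39. Over the 6 pairs of genotypes, SMH was lower than each of the others on the log2 scale: SMH minus SB825 was -1.0 ± 0.31 (SE; adjusted p = 0.0258), SMH minus SKI -1.15 ± 0.31 (0.0127) and SMH minus SMGO -1.21 ± 0.31 (0.00986). The other 3 pairs did not pass. Their 95% intervals ran from -0.54 to 0.86 for SKI minus SB825, from -0.49 to 0.92 for SMGO minus SB825 and from -0.65 to 0.76 for SMGO minus SKI. Without SMH replicate 1, 2 or 3 the span stayed at 1.21, 1.20 and 1.23, and the adjusted p was 0.053, 0.0559 and 0.0501 with 1 library fewer. Without the genotype SMH, a setting added after the values were seen, the adjusted p was 0.822.

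FF13 and FF15 were not lowest in whole-body SMH. FF15 averaged 9387 ± 1706 there, the highest of the 4 genotype means, and FF13 averaged 7288 ± 1619, against 2813 ± 239 in SB825. The FF total without FF12 did have its lowest mean in SMH, at 148059 ± 14434. It was 168338 ± 13275 in SB825, 180742 ± 16484 in SMGO and 196539 ± 8179 in SKI. The log2 ratio of FF12 to both was -1.25, -1.81 and -1.49 in the SMH libraries and -0.65 or higher in the other 9.

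Ampullae asked the same in the tissue where colonies meet. SB825-FX was lowest among the line means, at 6613, 8737 and 9728 (8359 ± 1592). SB825-FEA stood at 10360, 11171 and 15589 (12373 ± 2814), SB825-FDA at 14510, 13736 and 9667 (12638 ± 2601), and SMH at 12245, 15726 and 14988 (14320 ± 1834). In SMGO the libraries parted: replicates 2 and 3 stood at 18371 and 18595, the highest of all ampullae, and the libraries named technical at 5884 and 7506, among the lowest. The titles number the technical libraries as replicates 1 and 2, and another SMGO library is also replicate 2. Averaging the technical pair as 1 sample was thus a choice that the labels do not settle. With the pair so averaged, the SMGO mean was 14554 ± 6807 (n = 3).

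The gap inside SMGO was 2.76-fold, or 1.48 on the log2 scale. Of the 56 transcripts at 1 or more in all 4 SMGO libraries, 42.9%, FF12 among them, had no overlap between the technical libraries and replicates 2 and 3. The median absolute difference over the 56 was 0.26, and 2 differed by more than FF12. These were FcoR40 (-1.81) and FuHc-Tm (-1.86), named after their values were seen and both higher in the technical libraries. The technical libraries held 75 and 76 transcripts at a value of at least 1, and replicates 2 and 3 held 72 each. The labels do not say what the technical libraries share or how they were made.

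FF12 did not pass between ampullae lines in limma (adjusted p = 0.324), where 61% of 100 transcripts tested and 20 of 25 FF transcripts did. Line means spanned 0.79 on the log2 scale, against a median of 9.75 over the FF transcripts tested, and FF12 again had the largest p among them. FF19, FF9 and FF7, with the smallest p, spanned 12.82, 13.02 and 11.80. Among the SB825 lines alone 1.25% of 80 transcripts passed, which was PAK1, a signalling kinase named after its value was seen (adjusted p = 0.0414), and FF12 had a span of 0.59 (adjusted p = 0.273). None of the 10 pairs passed, and the widest difference was SMH minus SB825-FX, 0.79 ± 0.35 (SE; 95% interval 0.01 to 1.56; adjusted p = 0.126). The result turned on the technical pair. Without it FF12 passed (adjusted p = 0.0123): SB825-FX was then lower than SMGO by 1.16 ± 0.24 (adjusted p = 0.00317) and lower than SMH by 0.79 ± 0.21 (0.0167), and the other 8 pairs did not pass.

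**Figure D3:**
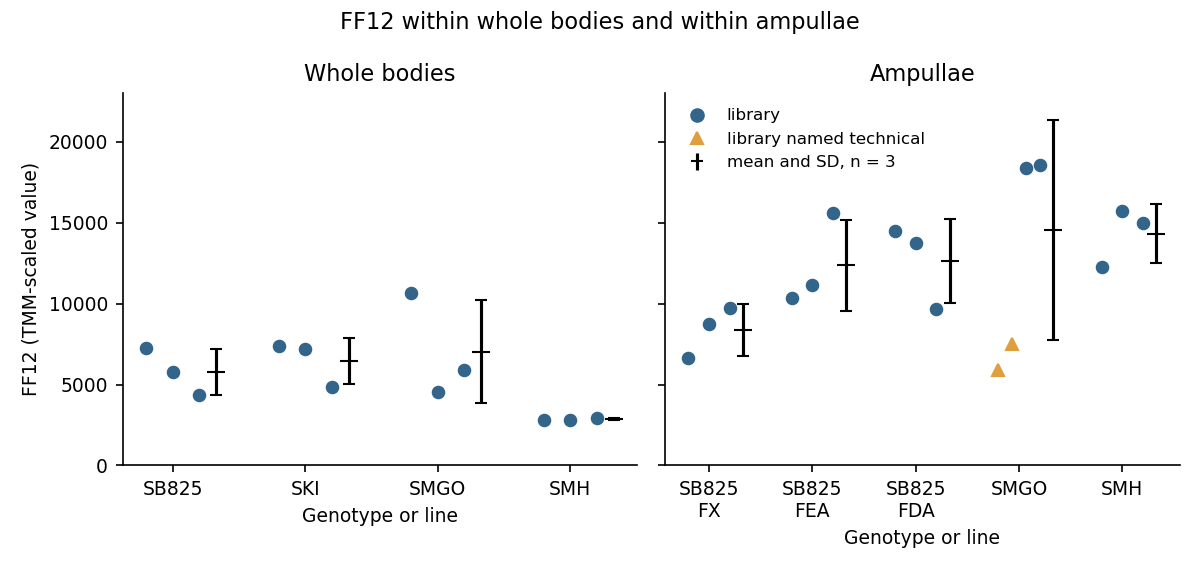
FF12 value (y axis, TMM-scaled) in whole bodies by genotype and in ampullae by line or colony (x axes); circles are libraries, triangles the SMGO libraries named technical, and bars the mean and SD of 3 samples, with the technical pair averaged as 1. SMH is lowest in whole bodies and among the higher groups in ampullae, and the SMGO ampullae split between 5884 to 7506 and 18371 to 18595.

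SMGO and SMH gave both tissues. Since the level in ampullae chose the gene, each colony's contrast is given with no test. In SMH the ampullae were 5.03-fold above the whole bodies, 14320 against 2848, with no overlap. In SMGO they were 1.79-fold above, 12589 over all 4 ampullae libraries against 7038, and the libraries overlapped. Without the technical libraries the SMGO ratio was 2.63-fold, 18483 against 7038, with no overlap between the 2 ampullae and 3 whole-body libraries left. The share of all transcripts without overlap was not counted for either colony. Relative to FF13 and FF15, ampullae minus whole body was 1.86 on the log2 scale in SMH, 0.09 in SMGO and 0.70 in SMGO without the technical libraries. The difference between colonies was not part of the choice and was tested after the values were seen. On the log2 scale, with the technical pair averaged, ampullae minus whole body was 2.32 in SMH and 1.0 in SMGO. The difference of 1.33 ± 0.57 (SE; 95% interval 0.07 to 2.58, for this transcript alone) did not pass (limma, adjusted p = 0.251). In the same test 1.08% of 93 transcripts passed, which was FcoR69 alone (11.34, adjusted p = 3.77e-05), a name given here after its value was seen. The difference was 0.83 without the technical libraries.

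Male colonies followed 3 genotypes through the budding cycle, in which each generation of zooids is replaced by its buds. M001 was highest, between 9134 and 14642 with a median of 11615 (mean 11758 ± 1668, n = 7 stages). MADM lay between 8630 and 12185 with a median of 9316 (9852 ± 1233), and MDR between 7566 and 10221 with a median of 9766 (9478 ± 915). The ranges overlapped, and M001 was the highest of the 3 genotypes at 5 of 7 stages, the exceptions being A1 and C2.

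With stage as a block, FF12 passed between male genotypes (limma, adjusted p = 0.0198), as did 80.2% of 106 transcripts and 27 of 28 FF transcripts. M001 was the highest: MADM minus M001 was -0.25 ± 0.09 on the log2 scale (SE; adjusted p = 0.0341) and MDR minus M001 -0.30 ± 0.09 (0.0133). MDR minus MADM was -0.05 (95% interval -0.26 to 0.15; adjusted p = 0.688). The span of genotype means, 0.30, was small beside the median of 9.46 over the FF transcripts tested. FF4, FF14 and FF10, with the smallest p, spanned 14.40, 13.52 and 13.63. The call was lost without stage A2 (adjusted p = 0.0773) or B2 (0.0646), and relative to the signalling and Fuhc transcripts (0.0653).

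As a share of the FF total, the male genotypes stood further apart. FF12 was 10% to 16.2% of the FF total in M001, with a median of 13.4%. The share was 4.51% to 6.45% in MADM and 4.74% to 6.99% in MDR, so the ranges did not overlap with M001. How many other FF transcripts parted in this way was not counted. The rest of the FF total was lower in M001, at 79544 ± 4941 without FF12, against 164296 ± 12637 in MADM and 151289 ± 11982 in MDR. FF12 was accordingly the first to the fourth most abundant FF transcript in M001, and the sixth to the ninth in MADM and MDR.

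Over the stages FF12 kept a narrow range. Stage means over the genotypes lay between 9289 ± 748 (SD, n = 3) at A1 and 11519 ± 2747 at A2, and the values at B1, B2, C1, C2 and D were 10471, 9698, 10553, 10960 and 10049. The A2 mean held the M001 library of 14642, beside 10437 and 9478. With genotype as a block FF12 did not pass between stages (limma, adjusted p = 0.739). In that comparison 0.926% of 108 transcripts passed, which was FuHc-Tm alone (adjusted p = 0.00708), a Fuhc product with a membrane anchor, named here after its value was seen; 8 had an unadjusted p under 0.05. None of the 28 FF transcripts passed, and FF2, FF7 and FF27, with the smallest p among them, each had an adjusted p of 0.739.

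**Figure D4:**
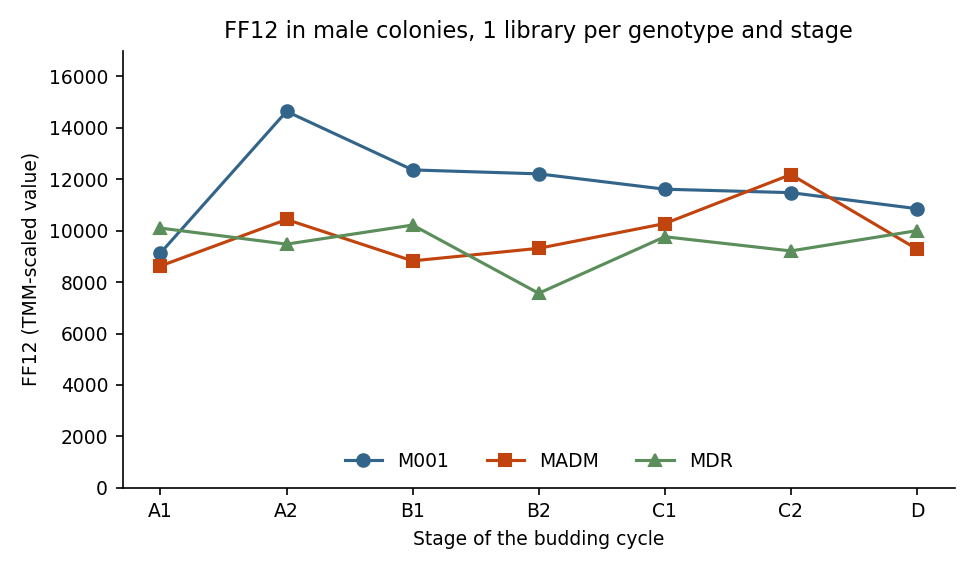
FF12 value (y axis, TMM-scaled) at 7 stages of the budding cycle (x axis) in the male genotypes M001, MADM and MDR; each point is 1 library and lines join the stages of a genotype. All 21 libraries lie between 7566 and 14642, and M001 is the highest at 5 of 7 stages.

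Male colonies were then set against whole bodies, with 1 mean per genotype. FF12 was above the highest whole-body library in 7 of 21 male libraries, and 11 of 12 whole-body libraries lay below the lowest male library. The difference was 1.01 ± 0.34 on the log2 scale (SE; 95% interval 0.20 to 1.81, for this transcript alone; 3 genotypes against 4). It did not pass after adjustment (limma, adjusted p = 0.209). FF12 had the smallest p of the 21 FF transcripts tested, before FF7 (8.55, adjusted p = 0.221) and FF6 (-5.81, 0.221). In all, 1% of 100 transcripts passed, which was NFAT alone (-2.50, adjusted p = 0.0159), a transcription factor of lymphocyte signalling in vertebrates, named after its value was seen. Sex, genotype and the handling of the samples cannot be told apart in this contrast.

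The ALDH fractions of an individual were compared directly, since the level of sorted cells, and not the difference between fractions, chose FF12. The positive fraction was higher in 3 of 4 individuals, 2.06-fold in individual 1, 1.30-fold in 2B and 1.23-fold in 7, and 0.70-fold in 6. As a share of all 137 transcripts it was higher in all 4, since individual 6 had 1.37% in the positive and 1.27% in the negative fraction. With the individual as a block the log2 difference was 0.30 ± 0.28 (SE; 95% interval -0.43 to 1.04) and did not pass (limma, adjusted p = 0.616). With library sums made equal it was 0.44 (adjusted p = 0.261). In that comparison 0% of 89 transcripts passed, and 9 had an unadjusted p under 0.05. The FF transcripts with the smallest p were FF13 (1.14, adjusted p = 0.176), FF8 (4.67, 0.433) and FF15 (1.02, 0.433). Relative to FF13 and FF15, FF12 was lower in the positive fraction of all 4 individuals, by -0.62, -0.39, -0.67 and -1.43 on the log2 scale in individuals 1, 2B, 7 and 6. That ratio was not tested.

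**Figure D5:**
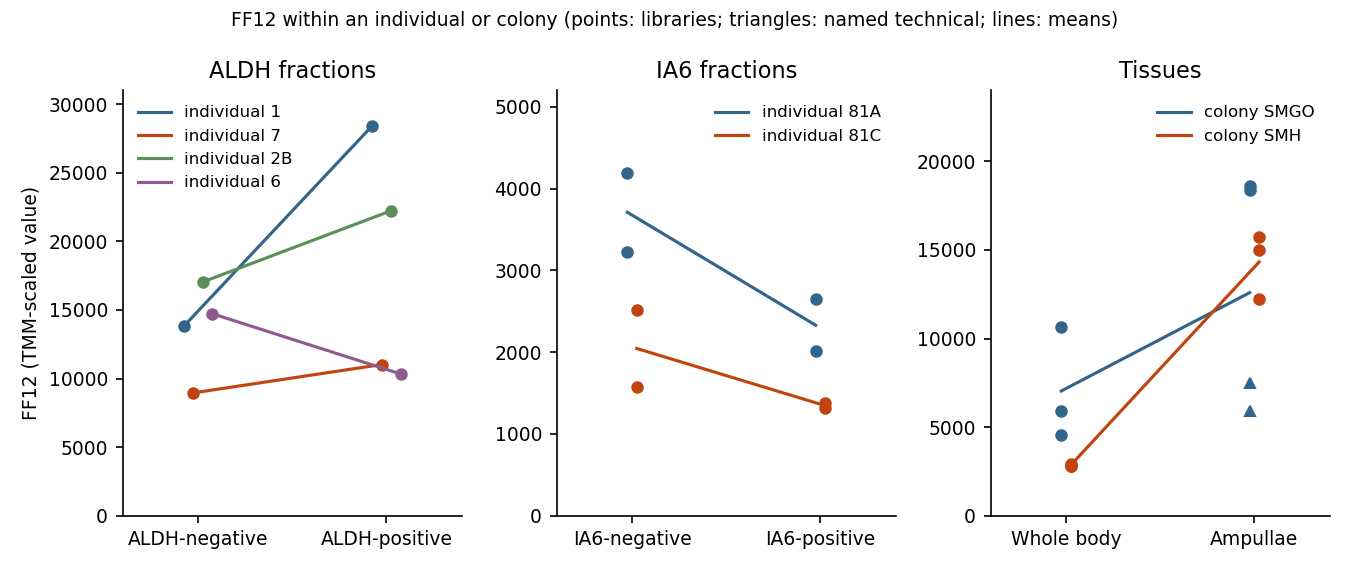
FF12 value (y axes, TMM-scaled, each panel with its own range) in the ALDH fractions, the IA6 fractions and the tissues of the same individual or colony (x axes); points are libraries, triangles libraries named technical, and lines join means. The ALDH-positive fraction is higher in 3 of 4 individuals, the IA6-positive fraction is lower in both individuals, and ampullae lie above whole bodies in both colonies.

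Winners and losers, as the labels call the ALDH individuals, overlapped in FF12. Averaged over both fractions, the losers stood at 21126 in individual 1 and 9987 in individual 7, and the winners at 19638 in 2B and 12531 in 6, so that the winners lay between the losers. The log2 difference, winners minus losers, was 0.14 ± 0.45 (SE; 95% interval -0.99 to 1.28) and did not pass (limma, adjusted p = 0.982). Here too 0% of 100 transcripts passed, with 3 at an unadjusted p under 0.05. The difference turned to -0.22 in ALDH-positive libraries alone and to -0.01 with library sums made equal. FF14 (10.45, adjusted p = 0.826), FF15 (-1.66, 0.975) and FF18 (8.45, 0.975) had the smallest p among the FF transcripts.

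The IA6 fractions are given with no test, since the low level of the positive cells was part of the choice. In individual 81A the negative libraries stood at 3225 and 4197 and the positive ones at 2010 and 2648. In 81C they stood at 2512 and 1578 and at 1378 and 1314. The fractions, with 2 libraries each, did not overlap within either individual. The share of all transcripts that parted in this way was not counted. The negative fraction was 1.59-fold and 1.52-fold the positive one. Both were below all libraries of ampullae and of ALDH cells. The individuals 79C and 79G, with positive cells alone, stood at 1403 and 0, and at 1775 and 1304.

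Between the 4 IA6-positive individuals FF12 did not pass (limma, adjusted p = 0.483), while 27.6% of 98 transcripts and 14 of 23 FF transcripts did. FF22, FF3 and FF9 had the smallest p, with spans of 15.56, 14.06 and 13.56 on the log2 scale. For FF12 the span of 5.94 came from the library listed at 0. Without individual 79C the adjusted p was 0.247, without its replicate 2, the library at 0, it was 0.317, and without its replicate 1, which leaves the zero alone in its group, it was 0.00064.

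Likeness to FF12 was measured by Spearman's rho over 32 combinations of class and colony or individual, using means of log2 values. These points share libraries, scaling and colonies, so rho is a description. Of 132 other transcripts, 4 had a rho above 0.5, and the median was 0.07. The most alike were FcoR44 (0.66), FF19 (0.61), FcoR23 (0.60), FcoR75 (0.54) and FF29 (0.49), which joined FF7, FcoR67 and FcoR35 at the same rounded value. FcoR44 had a class median of 4156 in ALDH-negative cells, 4355 in male colonies and 177 in IA6-positive cells. In ALDH-positive cells and ampullae, where FF12 was high, its medians were 2545 and 2211, against 1601 in blood. FF19 had class medians of 4446 in ALDH-positive cells and 4705 in ampullae and was near 0 in IA6-positive cells, but also in blood and BSA cells, where FF12 was present. FcoR23 had class medians of 8187 in ALDH-positive cells and 2865 in male colonies. In ampullae, however, its median was 33.1, below the 584 in IA6-positive cells, and it was at 0 in 13 of the 32 combinations. FcoR75 and FF29 were at 0 in 20 and 18 of the 32 combinations, so that their rho rests on presence or absence.

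For the 5 most alike, the likeness came mostly from sorted cells and blood. Over those 20 combinations the rho was 0.67 for FcoR44 and 0.66 for FF19, and over the 12 combinations of ampullae, whole bodies and male colonies it was 0.31 and 0.34. Over these 12, the rho of all transcripts ran from -0.87 for FcoR72 to 0.91 for a yes-like tyrosine kinase, both named after their values were seen. The most unlike were FF15 (-0.51), VAV (-0.50), an exchange factor that acts below immune receptors in vertebrates, and FcoR11 (-0.48). VAV had class medians of 19727 in ALDH-negative cells and 32491 in IA6-positive cells, and FF15 had 1639 and 8304. In ampullae, where FF12 was high, FF15 was high as well in every line or colony but SMGO. Its median over them was 9026, and its mean in SMGO was 1902 ± 549 (SD, n = 4).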

How the data were processed

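The deposited table gives 1 signal value per transcript and library. The tools listed by the submitters' processing notes are RSEM, kallisto and Trim Galore; versions, index and build are not given in the sources used here. The table is named for TMM scaling by the authors, and its base unit is inferred as TPM. Of 158 columns, 77 match a library by its description. The other 81 were not used. The BSA library SB01-03 was not analysed here.

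Values were analysed as log2(value + 1). A transcript was tested where its value (in male against whole-body and winner comparisons, the mean) was at least 1 in as many samples as the smallest group holds. Tests used limma 3.58.1 in R 4.3.3 with a variance trend over all such transcripts, Benjamini-Hochberg adjustment and a threshold of 0.05. Pairwise contrasts were adjusted over all transcripts and pairs together, and 95% intervals were not adjusted. Fold differences are on the scale of the values. Blocks were stage or genotype in male colonies and individual for ALDH fractions, per the labels. The SMGO libraries named technical were averaged on the log scale as 1 sample in tests. The labels do not say whether replicates are separate colonies, so p-values reflect spread among the libraries alone, and this spread may be technical. No batch is assigned to libraries by the labels. Fits were tested on simulated data with the same spread for every transcript. The planted changes were larger than the FF12 differences tested here, apart from those between IA6-positive individuals. That check therefore does not show how well differences as small as those of FF12 are found.

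FF12, the lists and the tests were chosen with earlier results of these data known. The named transcripts were FF12, the 5 most and 3 least alike by Spearman's rho (without BSA SB07-09 and SB10-11), its neighbours by mean log2, FF13 and FF15, and in each test the 3 FF transcripts with the smallest p. Alternatives were pseudocounts of 10 and 100, no filter, library sums made equal, a ratio to the mean log2 of the 23 signalling and Fuhc transcripts, no variance trend, other or no blocks, other uses of the technical libraries, and leaving out samples. Tables were read with pandas 2.3.3 and numpy 2.4.6 under Python 3.11.15, ranks were correlated with scipy 1.17.1, and matplotlib 3.10.9 drew the figures.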

Additional observations from a re-analysis of the deposited data

Results flagged for a closer look

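Within the male genotype MDR, the library of stage B2 had the lowest FF12 value, 7566, and its gap to the next library was 0.62 of the whole range of the 7 libraries, past the critical value for that number. Among the 7 groups large enough for this check no other sample stood out so far, and chance alone gives such a gap in about 1 in 20 groups. Without stage B2 the difference between male genotypes did not pass (limma, adjusted p = 0.0646).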

How the results depend on the processing

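Of 142 alternative values of the 9 results tested, 127 kept direction and side of the threshold. The whole-body call had adjusted p between 0.00656 and 0.0559 leaving out each library, above 0.05 without any SMH replicate, and 0.822 without SMH (added after seeing the data). The ampullae result ranged from 0.0123 to 0.652 leaving out each sample. It passed without the technical libraries (0.0123), and without them and with the replicate block together (0.0306); the block was not run with them kept. It stood at 0.449 with these libraries kept separate. The male genotype call ranged from 0.00709 to 0.0773 leaving out each stage, lost without A2 or B2 (0.0646), and was also lost as a ratio to the signalling and Fuhc transcripts (0.0653). The causes were not tested. Male stages ranged from 0.754 to 0.947 leaving out each genotype, and were at 0.548 with library sums made equal and 1 with no genotype block. IA6-positive individuals ranged from 0.00064 to 0.681 leaving out each library. Leaving out each individual, genotype or library, log2 differences ranged from 0.06 to 0.57 for ALDH fractions, 0.73 to 1.13 for males against whole bodies and 0.98 to 1.59 for SMH against SMGO. Males against whole bodies stood at 1.28 with library sums made equal and 1.41 as a ratio to the signalling and Fuhc transcripts, and SMH against SMGO at 0.83 without the technical libraries. Winners minus losers ranged from -0.36 to 0.64 leaving out each individual, reversed without individual 2B (-0.19) or 7 (-0.36), with library sums made equal (-0.01) and in ALDH-positive libraries (-0.22).

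Replicate numbers showed no clear pairing of samples. Same-numbered libraries correlated above 0.1 in 4 of 18 whole-body, 5 of 26 ampullae and 4 of 12 IA6-positive pairs. Their median correlations were 0.02, -0.02 and 0.02, against 0.01, 0.01 and -0.02 for other pairs. Whether same-numbered libraries shared their handling was not tested. With the replicate block, adjusted p was 0.0104 in whole bodies and 0.472 in IA6-positive individuals. Counts of called transcripts moved by over 1.5 times between SB825 ampullae lines alone (1, against 61 over all lines), between stages (0 to 2, against 1), for males against whole bodies (0 to 4, against 1) and for winners (1 in ALDH-negative libraries, against 0). Depth is unknown, so no detection limit is known for the zeros of FF12. The lowest value of at least 1 of any transcript was 2337 in BSA SB07-09 and 2034 in SB10-11. It was 29.1 in replicate 2 of the IA6-positive individual 79C.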
